A study of Mus musculus with 16 samples.

Results

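The transcripts of 10 amino acid transporters and transporter subunits of the hepatocyte plasma membrane (Slc38a2, Slc38a3, Slc38a4, Slc7a2, Slc7a5, Slc3a2, Slc3a1, Slc43a1, Slc16a10 and Slc1a4) were followed in mouse liver. They were picked by symbol out of the 46078 genes of the count table, and all 10 were found and had enough counts to be tested. The 10, and the gene lists given further below, were chosen with earlier results of these data known. Their counts beside the share of all genes are therefore descriptions and not independent evidence. Poly(A)-selected RNA was sequenced from 16 livers of C57BL/6 mice aged 22 weeks, in 4 groups of 4, and all groups had steatotic livers and obesity brought on by diet. The saline group received vehicle and was the control, and the calorie-restricted group lost an equivalent amount of weight by eating less. The Semaglutide group received a peptide agonist of the glucagon-like peptide-1 receptor. The Dicretin group received a co-agonist of that receptor and of the glucagon receptor. For sex, dose and length of treatment, nothing was given in the sources used here. A library is named by its group and the number in its title. The sources do not say in words that each number is a separate animal, so p-values measure the spread between these samples.

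The liver clears amino acids from portal blood, and hepatocytes then use them for glucose production, urea synthesis and protein synthesis. Transport across the sinusoidal membrane is carried by several families with overlapping substrates. Sodium-coupled carriers of the SLC38 family concentrate alanine and glutamine in the cell, the cationic carrier of the SLC7 family admits arginine, lysine and ornithine, and heteromeric exchangers pair an SLC3 heavy chain with an SLC7 light chain. Uniporters such as Slc16a10 and Slc43a1 let aromatic and branched-chain amino acids flow down their gradients. Glucagon has long been known to raise amino acid uptake and breakdown in the liver.

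Gene expression is given as CPM (a library's counts for a gene scaled to a common total), computed with TMM-scaled library totals. Means are ± SD over the 4 libraries of a group, and log2 fold changes are ± SE. Tests are edgeR's quasi-likelihood test, and adjusted p-values are Benjamini-Hochberg values over all 12910 genes tested in a comparison, and a gene passed at an adjusted p under 0.05. Levels of different transporters are compared only after division by exon length (CPM per kilobase). The sums of cell type markers are given in CPM and were not divided by length.

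Library totals lay between 12.144 and 18.755 M counts. Semaglutide 11 and Dicretin 14 had the lowest mean correlation with the other libraries of their group (0.957 and 0.958, across genes), and results that change without them are named. The samples are whole liver, and the label hepatocyte could be checked only against marker genes. The summed level of 7 hepatocyte markers lay between 103036 and 125920.1 CPM in saline and between 80047 and 95900.1 CPM in Dicretin. It lay between 135018 and 152047 CPM under calorie restriction and between 126802 and 155387 CPM with Semaglutide, against 53.9 to 453 CPM for 6 Kupffer cell markers in any group. The Kupffer sum had medians of 205 CPM in saline, 90.9 under calorie restriction, 142 with Semaglutide and 273 in Dicretin. Of its 6 markers, 3 rose in Dicretin against calorie restriction (15.1% of all genes did) and none passed against saline. The sum of 4 intestine markers had medians of 229, 117, 166 and 41.9 CPM in the same order. The part of these shifts in the transporter values was not tested. Of the 7 hepatocyte markers 2 rose and 2 fell in Dicretin against saline, where 17.5% of all genes were higher and 19.2% lower. The part of these marker changes in the transporter values was not tested. Of 4 kidney markers, Slc22a6, Slc34a1 and Kap received no counts in any group. The fourth, Lrp2, carried the sum of that list, which was 0 to 0.169 CPM in saline, 0.134 to 2.8 CPM under calorie restriction, 0.15 to 1.36 CPM with Semaglutide and 1.91 to 8.52 CPM in Dicretin. Lrp2 rose in all 3 comparisons with Dicretin, and its part in the transporter values was not tested. In whole tissue, fewer cells of a type and less RNA per cell cannot be told apart.

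The starts of the genes are shown first, as a description of their sequence. As background, the glucagon receptor signals through cyclic AMP, and a part of that signal in the transporter values was not tested. RefSeq promoter windows (GRCm38.p6, 250 bases before to 50 bases after a start) were found for 7 of the 10 genes. The stretch from 150 bases before the start through its first 10 bases is printed 5′ to 3′ for the 5 genes that rose in Dicretin and have a window. Capitals mark matches, on either strand, to the cyclic AMP response element core TGACG or to the amino acid response element letters TGATGNAA. For Slc3a2, the RefSeq start lies within the longer gene model of the annotation used for lengths.
Slc38a2 (chr15:96699719-96699878, minus strand): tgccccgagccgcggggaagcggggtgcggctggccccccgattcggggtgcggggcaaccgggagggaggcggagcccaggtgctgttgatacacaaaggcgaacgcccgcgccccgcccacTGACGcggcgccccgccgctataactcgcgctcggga
Slc1a4 (chr11:20332704-20332863, minus strand): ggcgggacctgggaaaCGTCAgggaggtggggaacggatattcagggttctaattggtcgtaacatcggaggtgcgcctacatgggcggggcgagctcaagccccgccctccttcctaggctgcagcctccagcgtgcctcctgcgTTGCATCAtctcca
Slc16a10 (chr10:40142245-40142404, minus strand): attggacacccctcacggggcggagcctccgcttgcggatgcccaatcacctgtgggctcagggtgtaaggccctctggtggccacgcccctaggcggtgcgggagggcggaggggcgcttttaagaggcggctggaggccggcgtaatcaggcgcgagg
Slc3a2 (chr19:8713888-8714047, minus strand): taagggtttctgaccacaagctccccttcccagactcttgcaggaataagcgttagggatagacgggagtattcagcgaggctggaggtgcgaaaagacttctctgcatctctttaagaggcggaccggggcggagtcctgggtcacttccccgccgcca
Slc3a1 (chr17:85028197-85028356, plus strand): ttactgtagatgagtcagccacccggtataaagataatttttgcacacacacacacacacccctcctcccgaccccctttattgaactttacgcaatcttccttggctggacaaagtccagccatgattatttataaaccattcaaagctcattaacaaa
In these windows the core TGACG began 27 bases before the Slc38a2 start. In Slc1a4 it was found on the opposite strand (printed as CGTCA), at position -134. The Slc1a4 window also held the amino acid response element letters on the opposite strand (printed as TTGCATCA) from position -4 across the start. No match to any of the motifs was found in the Slc16a10, Slc3a2 and Slc3a1 windows, which says only that these letters are not there.

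The third gene with the core was Slc38a4, at position -110 of an alternative start, and none of the 7 genes held the full palindrome TGACGTCA. Over all 32851 windows in the table, 20.8% held the core, 1.79% the palindrome (which contains the core) and 3.97% the amino acid response element letters. These shares are per window, whereas the transporters are counted per gene. Slc38a4 has several windows, so its count and the shares are not on the same basis. A match is a description of the sequence, and binding was not measured. As background, the amino acid response element described for Slc38a2 lies in its first intron, outside the printed stretch.

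In Dicretin livers, 6 of the 10 transcripts rose against saline, 1 fell and 3 did not pass. Among all genes tested, 17.5% were higher, 19.2% were lower and 36.7% passed in either direction. The 5 that rose most were Slc38a2, Slc3a2, Slc7a2, Slc3a1 and Slc16a10, each between 3.66-fold and 4.56-fold higher, and Slc1a4 rose 1.82-fold. Slc38a3 fell, while Slc38a4, Slc7a5 and Slc43a1 did not pass. The median log2 fold change of the 10 was 1.37, against -0.01 for all genes tested. Because the 10 were chosen with earlier results of these data known, these contrasts with all genes are descriptions only. In 6 of the 10 the Dicretin and saline libraries did not overlap, against 34.2% of all genes. The plot of CPM by library shows each transcript in its 4 groups.

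**Figure D1:**
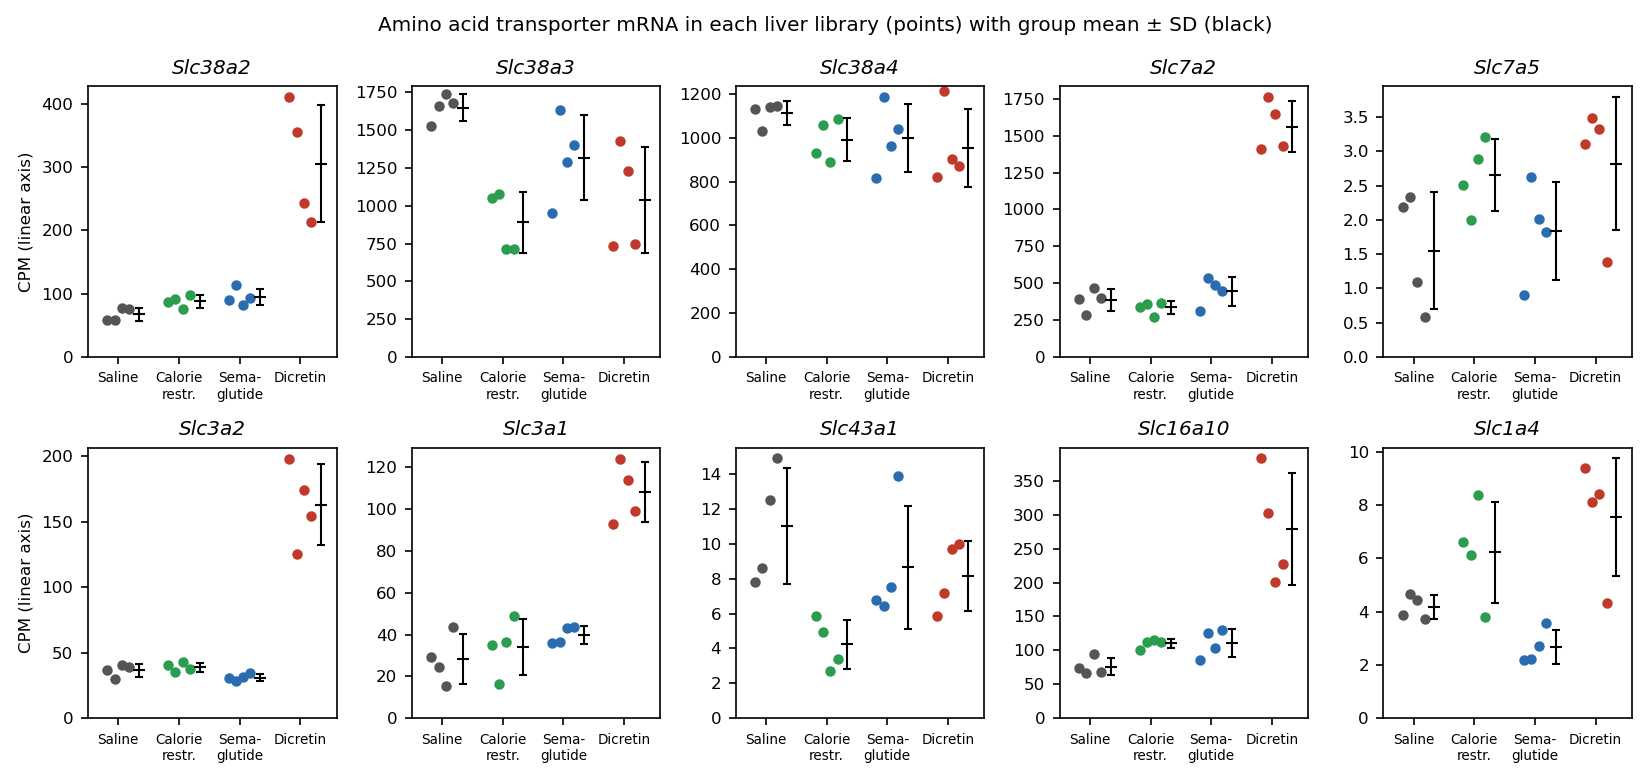
Level of each of the 10 transporter transcripts in CPM (vertical axes start at 0 and differ between panels), with 1 point per liver library and the group mean ± SD in black for saline, calorie restriction, Semaglutide and Dicretin. The Dicretin points of Slc38a2, Slc7a2, Slc3a2, Slc3a1 and Slc16a10 lie above every point of the other 3 groups.

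Slc38a2 (chr15:96687392-96699730) encodes SNAT2, a sodium-coupled importer of small neutral amino acids such as alanine that cells are known to induce when amino acids run short. It was measured at 58.8, 57.6, 76.9 and 75.4 CPM in saline livers 35, 50, 73 and 78. In calorie restriction it was measured at 87, 91.2, 75 and 98.5 CPM (libraries 7, 8, 52 and 79) and in Semaglutide at 89.7, 113, 82.4 and 93.2 CPM (libraries 11, 15, 31 and 51). In Dicretin it reached 411, 356, 244 and 214 CPM (libraries 14, 23, 64 and 65). All 4 Dicretin libraries were above every other library, and Dicretin 14 and 23 were higher than 64 and 65. The fold change against saline was 4.56 (log2 2.19 ± 0.20, adjusted p = 1.53e-07 by edgeR), with means of 306 ± 92.9 and 67.2 ± 10.4 CPM.

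Slc38a2 lies beside Slc38a4 on the same strand of chromosome 15, and the neighbour moved differently. Slc38a4 (chr15:96994820-97055956) encodes SNAT4, a carrier of the same transport system that is strongly enriched in liver. It was measured at 1131, 1029.7, 1142 and 1144 CPM in saline and at 819, 1214, 905 and 873 CPM in Dicretin. The groups overlapped through Dicretin 23, the highest library of all 16. Dicretin against saline had a log2 fold change of -0.22 ± 0.15 (adjusted p = 0.264), and no comparison of Slc38a4 passed. Calorie restriction ranged from 887 to 1087 CPM and Semaglutide from 815 to 1187 CPM.

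Slc38a3 (chr9:107650634-107669530) encodes SNAT3, which carries glutamine, histidine and asparagine together with sodium and can run in either direction. Saline libraries had 1525, 1658, 1737 and 1682 CPM, and Dicretin libraries 732, 1428, 1233 and 745 CPM. Calorie-restricted libraries had 1052, 1078, 712 and 717 CPM, and Semaglutide libraries 953, 1633, 1290 and 1399 CPM. Every calorie-restricted and Dicretin library lay below every saline library, whereas Semaglutide 15 lay within the saline range. Within Dicretin, libraries 14 and 65 were well below 23 and 64.

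Slc38a3 fell against saline in both groups, with a log2 fold change of -0.67 ± 0.22 in Dicretin (adjusted p = 0.0238) and -0.89 ± 0.22 in calorie restriction (adjusted p = 0.0199). The Dicretin call was lost without Dicretin 14 (adjusted p = 0.0678), Dicretin 65 (0.0751), saline 50 (0.0542) or saline 73 (0.0622), each left out alone, and over all 18 alternatives its adjusted p ranged from 0.00837 to 0.0751. The calorie restriction call was lost without calorie-restricted 52 (adjusted p = 0.076) or 79 (0.0679), or without saline 50 (0.0548) or 73 (0.0615), with a range of 0.00082 to 0.076. Between Dicretin and calorie restriction Slc38a3 did not pass (log2 0.22 ± 0.22, adjusted p = 0.488).

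Slc7a2 (chr8:40862396-40922308) encodes the cationic amino acid transporter CAT2, which brings arginine, ornithine and lysine into the hepatocyte. It was measured at 393, 285, 464 and 398 CPM in saline and at 1408, 1763, 1649.7 and 1428 CPM in Dicretin. Calorie restriction had 341, 361, 269.8 and 367 CPM, and Semaglutide 309, 537, 486 and 449.5 CPM. The lowest Dicretin library was above every library of the other groups, and those 3 groups overlapped each other. The fold change of Dicretin against saline was 4.06 (log2 2.02 ± 0.19, adjusted p = 2.27e-07). The opposite-strand transcript Gm26584 shares 635 exon bases with Slc7a2 and received 61 counts in all, against 166251 for Slc7a2.

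The heavy chains carry no amino acids themselves but bring their light chains to the membrane. Slc3a2 (chr19:8706882-8723369) encodes 4F2hc, also called CD98 heavy chain, the partner of the L-type and y+L-type light chains. It was measured at 36.9, 29.8, 40.7 and 39 CPM in saline, and at 198, 125, 174 and 154 CPM in Dicretin. Calorie restriction had 40.4, 35.1, 42.7 and 37.7 CPM, and Semaglutide 30.4, 28.5, 31.2 and 34.2 CPM. The 4 Dicretin libraries stood far above the other 12, which all lay between 28.5 and 42.7 CPM. Slc3a2 was 4.45-fold higher in Dicretin than in saline (log2 2.16 ± 0.15, adjusted p = 8.69e-09), the smallest adjusted p of the 10 transcripts in that comparison.

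Slc3a1 (chr17:85028376-85064236) encodes rBAT, the heavy chain of the cystine and dibasic amino acid exchanger known from kidney and intestine. Saline libraries had 29.4, 24.4, 15.3 and 43.8 CPM and Dicretin libraries 92.9, 124, 114 and 98.9 CPM. Calorie restriction had 34.9, 16.5, 36.3 and 48.7 CPM, and Semaglutide 35.8, 36.5, 43.4 and 43.7 CPM. Dicretin was separate from the other groups, which overlapped widely, and the spread within saline and calorie restriction was large. The fold change against saline was 3.82 (log2 1.93 ± 0.28, adjusted p = 4.11e-05). Slc3a1 shares 601 exon bases with Prepl on the opposite strand, and whether reads were counted by strand was not stated, so the reads of the 2 genes may not be fully told apart. Prepl itself was 36.9 ± 5.95 CPM in Dicretin and 16.9 ± 2.62 CPM in saline (log2 1.13 ± 0.19, adjusted p = 0.000156), and its part in the Slc3a1 value was not tested.

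Light chains were far less abundant than the heavy chain Slc3a2, per length, in every library. Among the 10 transcripts the only light chain was Slc7a5 (chr8:121881150-121907694), which encodes LAT1, the exchanger of large neutral amino acids that proliferating cells express. Saline libraries had 2.19, 2.33, 1.09 and 0.579 CPM and Dicretin libraries 3.11, 3.49, 3.32 and 1.39 CPM. Of the Dicretin libraries, 3 were above all saline libraries and library 65 was not. Dicretin against saline had a log2 fold change of 0.85 ± 0.39 (adjusted p = 0.1), and it passed without Dicretin 65 (adjusted p = 0.0409, range over alternatives 0.0409 to 0.238). Calorie restriction had 1.99 to 3.21 CPM and Semaglutide 0.9 to 2.62 CPM, and no comparison of Slc7a5 passed. Its 7 to 58 counts per library limit the precision.

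The other light chains known to pair with the 2 heavy chains were looked up after the values above had been seen. Slc7a7, which encodes the y+LAT1 exchanger of cationic and neutral amino acids, rose from 1.43 ± 0.367 CPM in saline to 4.48 ± 0.854 CPM in Dicretin (log2 1.64 ± 0.26, adjusted p = 0.000103), and the groups did not overlap. Slc7a8, which encodes LAT2, was at 3.22 ± 0.848 and 2.21 ± 0.438 CPM and did not pass (log2 -0.56 ± 0.32, adjusted p = 0.183). Slc7a6, Slc7a10 and Slc7a11 had 75, 6 and 11 counts over all 16 libraries and were not tested. Slc7a9 and Slc7a13, the known partners of Slc3a1, received no counts in any library, which allows a level of up to 0.0122 CPM over the 16 libraries together (3 counts, counting error only).

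Set against the summed level of its 6 light chains, Slc3a2 was 14.5 to 19.5 times as abundant per length in the Dicretin libraries. The same ratio spanned 4.59 to 10.8 in saline, 5.74 to 6.53 under calorie restriction and 4.75 to 6.76 with Semaglutide. The group means were 17.7 ± 2.19 in Dicretin, 7.12 ± 2.75 in saline, 6.09 ± 0.344 in calorie restriction and 5.71 ± 0.881 in Semaglutide. The Dicretin libraries were separate from the rest in the heavy chain, in the light chain sum and in the ratio. The light chain sum was 2.32 to 2.88 CPM per kilobase in Dicretin and at most 2.11, under calorie restriction, in the other groups. Saline 78 had the highest ratio outside Dicretin. The ratio is a description with no test, and it compares messenger RNA and not protein.

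**Figure D2:**
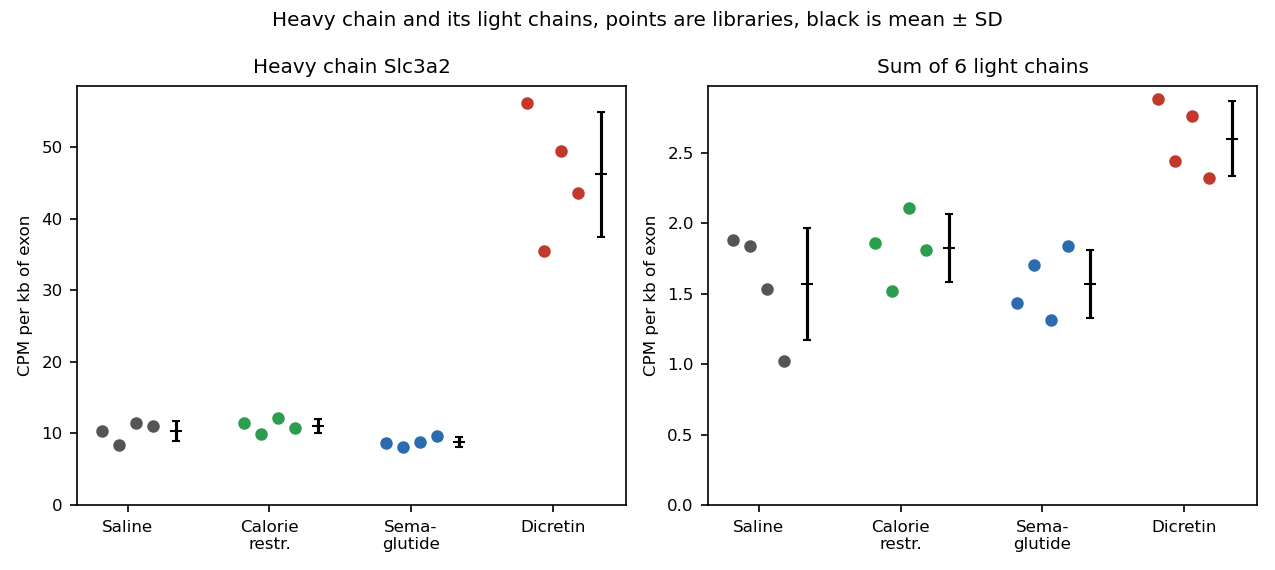
Level per length, in CPM per kilobase of exon, of the heavy chain Slc3a2 and of the sum of its 6 light chains, with 1 point per library and the group mean ± SD in black. Slc3a2 averaged 46.1 in Dicretin and 8.82 to 11 in the other groups, while the light chain sum averaged 2.6 in Dicretin and 1.57 to 1.82 elsewhere.

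Slc16a10 (chr10:40033532-40142258) encodes TAT1, a uniporter through which tyrosine, phenylalanine and tryptophan equilibrate across the hepatocyte membrane. It was measured at 74.7, 67.4, 94.1 and 68.4 CPM in saline and at 383, 303, 201 and 227 CPM in Dicretin. Calorie restriction had 101, 113, 116 and 112 CPM, and Semaglutide 86.3, 126, 103 and 129.8 CPM. All Dicretin libraries were above the other 12, and the calorie-restricted libraries were in turn all above saline. The fold change of Dicretin against saline was 3.66 (log2 1.87 ± 0.19, adjusted p = 7.41e-07).

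Slc43a1 (chr2:84838850-84863594) encodes LAT3, a uniporter of branched-chain amino acids and phenylalanine. Saline libraries had 7.81, 8.61, 12.5 and 14.9 CPM and Dicretin libraries 5.84, 7.16, 9.69 and 9.96 CPM, so that the groups overlapped. Slc43a1 did not pass (log2 -0.42 ± 0.29, adjusted p = 0.274). In calorie restriction Slc43a1 was at 5.84, 4.96, 2.72 and 3.41 CPM, below every saline library, and Semaglutide libraries had 6.75, 6.42, 7.52 and 13.9 CPM.

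Slc1a4 (chr11:20302180-20332713) encodes ASCT1, an exchanger of alanine, serine and cysteine. Saline libraries had 3.88, 4.65, 4.42 and 3.72 CPM and Dicretin libraries 9.37, 8.12, 8.4 and 4.33 CPM. Dicretin 65 lay within the saline range and the other Dicretin libraries lay above it. Slc1a4 rose 1.82-fold (log2 0.86 ± 0.26, adjusted p = 0.0148). Calorie restriction had 6.6, 6.11, 8.37 and 3.81 CPM, and Semaglutide 2.17, 2.21, 2.72 and 3.57 CPM, all of them below saline.

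Calorie restriction was set against saline to show what a diet with equivalent weight loss did to these transcripts. None of the 10 rose and 2 fell, Slc38a3 (above) and Slc43a1, where 3.42% of all genes tested were higher, 4.11% were lower and 7.53% passed in either direction. Slc43a1 fell from 11 ± 3.33 to 4.23 ± 1.42 CPM (log2 -1.37 ± 0.30, adjusted p = 0.00965), the largest change of the 10 in this comparison. In 3 of the 10 the groups did not overlap, against 22.9% of all genes. The third was Slc16a10, at 110.4 ± 6.61 against 76.2 ± 12.4 CPM, which did not pass (log2 0.54 ± 0.19, adjusted p = 0.0882). It passed with a fit of only these 2 groups (adjusted p = 0.00408), with a length trend removed (0.0306) and without Semaglutide 11 and Dicretin 14 (0.0142), with a range of 0.00408 to 0.2 over the alternatives. Slc38a2 had a log2 fold change of 0.39 ± 0.19 (adjusted p = 0.224) and passed only with the fit of these 2 groups (0.0305, range 0.0305 to 0.409). The median of the 10 was 0.18, against -0.01 for all genes.

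Semaglutide was set against saline to describe the group given the single agonist. In this comparison the drug and any weight loss with it cannot be told apart. None of the 10 transcripts passed by edgeR, DESeq2 or limma-voom, where 4.18% of all genes passed in edgeR's test, 1.56% higher and 2.62% lower. At an unadjusted p under 0.05 there were 3, namely Slc16a10 (log2 0.54 ± 0.19, adjusted p = 0.112), Slc38a2 (0.50 ± 0.19, 0.152) and Slc1a4 (-0.64 ± 0.27, 0.206). Groups did not overlap in 2 of the 10, Slc38a2 and Slc1a4, against 14.2% of all genes. Slc16a10 passed with a length trend removed (adjusted p = 0.0153) and without Semaglutide 11 and Dicretin 14 (0.0142), and Slc38a2 with a length trend removed (0.0348). Over the alternatives these adjusted p-values ranged from 0.0142 to 0.26 for Slc16a10 and from 0.0348 to 0.356 for Slc38a2. Slc7a2, Slc3a2 and Slc3a1, which rose in Dicretin, had log2 fold changes of 0.21 ± 0.18, -0.23 ± 0.15 and 0.50 ± 0.28 in Semaglutide. The 3 comparisons with saline share the same control libraries, so their values are not independent.

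**Figure D3:**
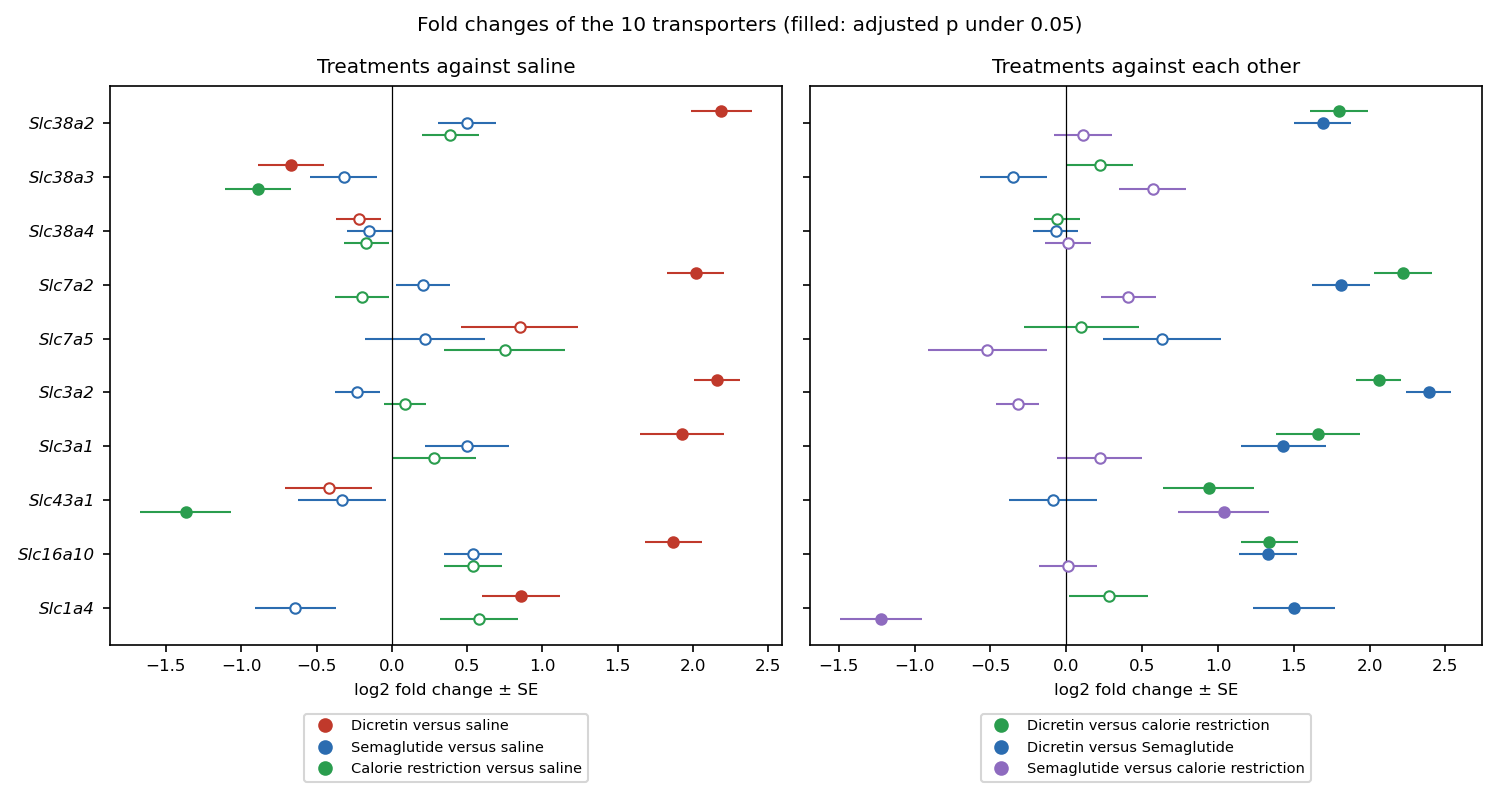
Log2 fold change (horizontal axis) ± SE of the 10 transcripts, with the 3 treatments against saline in one panel and the treatments against each other in the other. Filled points have an adjusted p under 0.05, and in both panels the comparisons with Dicretin lie between 1.33 and 2.39 for Slc38a2, Slc7a2, Slc3a2, Slc3a1 and Slc16a10 while the comparisons without it reach at most 0.54 for these 5.

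Dicretin and Semaglutide both act on the GLP-1 receptor, and Dicretin also acts on the glucagon receptor. They are different peptides at doses not given here, so receptor, dose and other differences between the groups cannot be told apart. In the direct comparison 6 of the 10 transcripts were higher in Dicretin and none was lower, where 14.8% of all genes were higher, 17.1% were lower and 32.0% passed in either direction. The unadjusted count was also 6, as were the counts by DESeq2 and limma-voom. Slc3a2 was 5.23-fold higher (log2 2.39 ± 0.15, adjusted p = 2.76e-09), Slc7a2 3.51-fold (1.81 ± 0.19, 8.36e-07) and Slc38a2 3.23-fold (1.69 ± 0.19, 2.74e-06). Slc3a1 was 2.7-fold higher (1.43 ± 0.28, 0.000695), Slc16a10 2.51-fold (1.33 ± 0.19, 3.56e-05) and Slc1a4 2.83-fold (1.50 ± 0.27, 0.000331). All 6 were separate between the groups, against 26.2% of all genes. Without Semaglutide 11 and Dicretin 14 these 6 log2 fold changes ranged from 1.03 (Slc16a10) to 2.27 (Slc3a2), and all passed.

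Against calorie restriction, which matched the weight loss, 6 of the 10 were higher in Dicretin and none was lower, where 15.1% of all genes were higher, 16.2% were lower and 31.3% passed in either direction. Slc7a2 was 4.66-fold higher (log2 2.22 ± 0.19, adjusted p = 9.71e-08), Slc3a2 4.18-fold (2.06 ± 0.15, 1.79e-08) and Slc38a2 3.48-fold (1.80 ± 0.19, 1.51e-06). Slc3a1 was 3.15-fold (1.66 ± 0.28, 0.000231) and Slc16a10 2.53-fold higher (1.34 ± 0.19, 3.55e-05). These 5 were separate between the groups, against 28.4% of all genes. The sixth, Slc43a1, overlapped at 5.84 CPM and had a log2 fold change of 0.94 ± 0.30 (adjusted p = 0.0241). Its call was lost without Dicretin 64 (0.0643) or 65 (0.0648) and without calorie-restricted 52 (0.0792) or 79 (0.0702), with a range of 0.00854 to 0.0792 over the alternatives. Slc1a4 did not pass (log2 0.28 ± 0.26, adjusted p = 0.429).

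Between Semaglutide and calorie restriction, 2 of the 10 transcripts passed, 1 in each direction, where 3.05% of all genes were higher in Semaglutide, 3.07% were lower and 6.12% passed in all. Slc1a4 was lower in Semaglutide, at 2.67 ± 0.65 against 6.22 ± 1.88 CPM, with no overlap (log2 -1.22 ± 0.27, adjusted p = 0.0112), and passed under all 18 alternatives. Slc43a1 was higher in Semaglutide, at 8.65 ± 3.53 against 4.23 ± 1.42 CPM, also with no overlap (log2 1.04 ± 0.30, adjusted p = 0.0495). That adjusted p is just under the threshold, and the call was lost in 9 of 18 alternatives, among them leaving out Semaglutide 51 (log2 0.70, adjusted p = 0.136, range over alternatives 0.0144 to 0.153). Groups did not overlap in 3 of the 10 transporters, against 15.6% of all genes, and the third was Slc3a2 (log2 -0.32 ± 0.14, adjusted p = 0.187). Without Semaglutide 11 and Dicretin 14, Slc38a3 (log2 0.69, adjusted p = 0.0379) and Slc7a2 (log2 0.55, adjusted p = 0.0355) also passed as higher in Semaglutide, while over all alternatives their adjusted p reached 0.306 and 0.38.

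The order of levels per length, across genes, was led by the same SLC38 pair in every group's means. In saline, Slc38a3 averaged 313 ± 17 CPM per kilobase and Slc38a4 261 ± 12.9, followed by Slc7a2 at 42.2 ± 8.12, and each of these 3 differed from the next by more than the sum of the SDs. Slc3a1 (12.4 ± 5.25), Slc3a2 (10.4 ± 1.36), Slc16a10 (10.4 ± 1.68) and Slc38a2 (7.6 ± 1.18) followed, and neighbours in that run differed by less than the sum of their SDs. The lowest 3 were Slc43a1 (1.92 ± 0.583), Slc1a4 (1.06 ± 0.112) and Slc7a5 (0.417 ± 0.229).

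In Dicretin the gap below the leading pair closed. Slc38a4 averaged 224 ± 41.8, Slc38a3 196 ± 66.5 and Slc7a2 171 ± 18.9 CPM per kilobase, and neighbours among these 3 differed by less than the sum of their SDs. In Dicretin 14 and 65 Slc7a2 (154 and 156) was above Slc38a3 (139 and 141), and in Dicretin 23 and 64 it was below (193 and 181 against 271 and 234). Slc3a1 (47.4 ± 6.32), Slc3a2 (46.1 ± 8.75), Slc16a10 (37.9 ± 11.2) and Slc38a2 (34.6 ± 10.5) formed the next run, again with neighbours closer than the sum of their SDs. Slc1a4 (1.92 ± 0.565), Slc43a1 (1.43 ± 0.349) and Slc7a5 (0.762 ± 0.262) stayed low. In calorie restriction Slc38a4 (233 ± 22.8) ranked above Slc38a3 (169 ± 38.3), and in Semaglutide the pair was at 235 ± 36.4 and 249.9 ± 53.6.

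Expressed as a share of the summed level per length of the 10 transcripts, Slc7a2 made up 6.36% ± 0.998 in saline, 7.44% ± 0.532 in calorie restriction, 8.24% ± 0.745 in Semaglutide and 22.6% ± 1.35 in Dicretin. Slc38a3 made up 47.4% ± 2.16 in saline, 34.1% ± 5.45 in calorie restriction, 42.2% ± 1.79 in Semaglutide and 25.3% ± 4.93 in Dicretin. Slc38a2 went from 1.15% ± 0.124 in saline to 4.6% ± 1.51 in Dicretin. Within the system A pair, the level of Slc38a2 per length relative to Slc38a4 spanned 0.0251 to 0.0325 in saline and 0.118 to 0.242 in Dicretin. It spanned 0.0407 to 0.0451 under calorie restriction and 0.0413 to 0.0531 with Semaglutide. No treated library reached down to the saline range of this ratio, which was given no test.

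**Figure D4:**
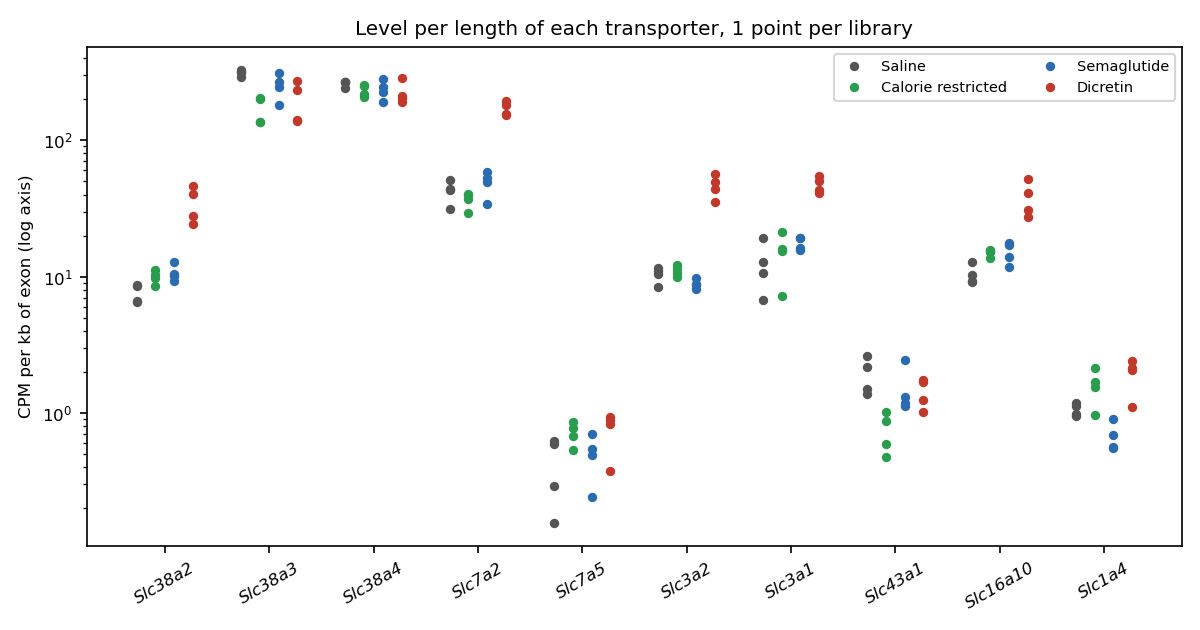
Level per length of each transporter, in CPM per kilobase of exon on a log axis, with 1 point per library and the groups in separate colours. Slc38a3 and Slc38a4 have the highest means in all groups, Slc7a2 in Dicretin has a mean of 171 and lies above Slc38a3 in libraries 14 and 65, and Slc7a5 is the lowest at means of 0.417 to 0.762.

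Some of the transcripts also varied together between libraries, described here by Pearson's r of log2 CPM over the 16 libraries. These points share their groups and library scaling, and the 4 Dicretin libraries stand apart, so r over all 16 mainly separates Dicretin from the rest. Slc38a2 and Slc16a10 had an r of 0.97, and among the 45 pairs 9 were above 0.8, all between Slc38a2, Slc7a2, Slc3a2, Slc3a1 and Slc16a10. The median r of the 45 pairs was 0.31 (lowest -0.58), and with group means subtracted it was 0.11 (lowest -0.49). After subtracting group means, Slc38a2 and Slc16a10 still had an r of 0.73 and over the 12 libraries without Dicretin one of 0.78. For Slc7a2 and Slc3a2, which had an r of 0.92 over 16 libraries, these values were 0.01 and -0.24. Slc38a3 and Slc38a4 had an r of 0.70 both over 16 libraries and after subtracting group means, and Slc38a4 with Slc7a2 had an r of 0.77 after subtracting group means.

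**Figure D5:**
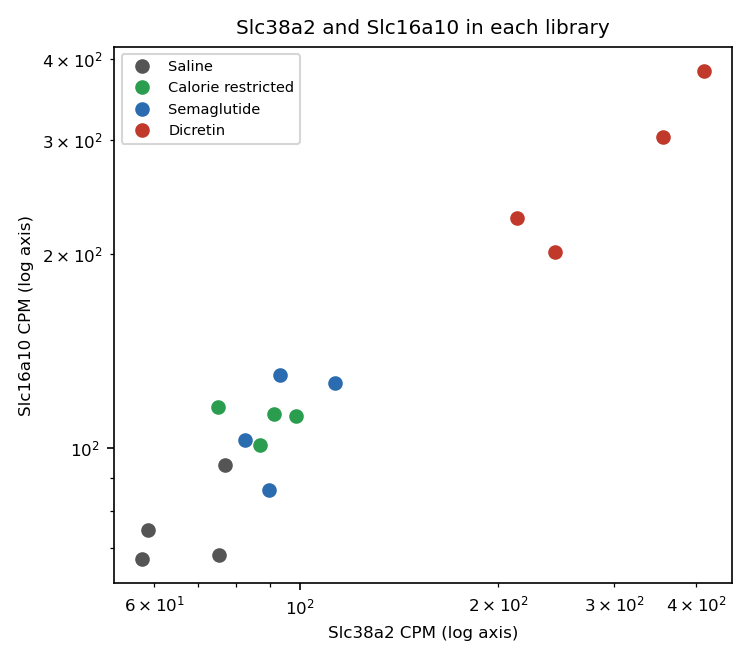
Slc38a2 (horizontal, CPM, log axis) against Slc16a10 (vertical, CPM, log axis), with 1 point per library coloured by group. The Dicretin libraries run from 214 and 227 CPM (library 65) to 411 and 383 CPM (library 14), apart from the other 12 libraries.

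The genes most like each transporter in pattern were taken from 8695 others with a mean of at least 5 CPM. Closest to Slc38a2 were Ankrd13c (r = 0.975), Lgr4 (0.972) and Slc16a10 (0.966), and closest to Slc16a10 were Raph1 (0.967), Slc38a2 (0.966) and Gdap2 (0.954). Slc3a2 was most like Ppargc1a (0.977), Aass (0.976) and Maoa (0.976). Ppargc1a encodes a coactivator of gluconeogenic genes, and over the 12 libraries without Dicretin its r with Slc3a2 was 0.25, against 0.72 for Aass, the first enzyme of lysine breakdown. Slc7a2 was most like Tuba8 (0.965), Hbs1l (0.964) and Epop (0.962), and Slc3a1 most like Arih2 (0.943), Emc10 (0.937) and Pon2 (0.932). Slc1a4 was most like Mettl16 (0.906), G6pc (0.904) and Pde3b (0.899), and without Dicretin its r with G6pc, the catalytic subunit of glucose-6-phosphatase, was 0.91. Slc38a3 and Slc43a1 had looser matches, led by Ubl7 (0.857) and Gpcpd1 (0.809).

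Among the other plasma membrane amino acid transporters, 18 of 35 had enough counts to be tested, and in Dicretin against saline 4 rose and 4 fell, with a median log2 fold change of -0.25 (-0.01 for all genes). As given above, 17.5% of all genes were higher, 19.2% were lower and 36.7% passed in that comparison, so 8 of 18 is near the share of all genes. Members of the SLC36 family moved in both directions. Slc36a4 rose from 6.5 ± 2.25 to 20.6 ± 6.48 CPM (log2 1.66 ± 0.26, adjusted p = 9.53e-05), and Slc36a1 fell from 21.4 ± 1.86 to 6.78 ± 1.05 CPM (log2 -1.66 ± 0.20, adjusted p = 5.24e-06). Slc1a5, which encodes the glutamine exchanger ASCT2 and is the closest relative of Slc1a4, rose (log2 1.10 ± 0.23, adjusted p = 0.000952), and so did the creatine carrier Slc6a8 (1.46 ± 0.29, 0.000704).

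Of the same 18, 5 were higher and 3 lower in Dicretin than in calorie restriction, where 15.1% of all genes were higher and 16.2% lower. Against Semaglutide, 6 were higher and 2 lower in Dicretin, where 14.8% of all genes were higher and 17.1% lower. In Semaglutide against saline none of the 18 passed by edgeR, DESeq2 or limma-voom, and 4 had an unadjusted p under 0.05. Of all genes, 4.18% passed there by edgeR. In calorie restriction against saline 1 of the 18 passed, where 7.53% of all genes did. It was the GABA and taurine carrier Slc6a13 (log2 0.55 ± 0.15, adjusted p = 0.0281), which rose from 140.2 ± 14.8 to 206 ± 22.4 CPM. That call was lost without calorie-restricted 7 (adjusted p = 0.0866) or 52 (0.0684) and without saline 35 (0.0901), 50 (0.0722) or 73 (0.0778), with a range of 0.00257 to 0.0901 over the alternatives. Of 12 transporters of lysosomes and other internal membranes tested, 1 rose in Dicretin against saline, the histidine and peptide carrier Slc15a4 (log2 1.09 ± 0.17, adjusted p = 7.87e-05), and 4 fell, again near the 36.7% of all genes that passed. Those 4 were Slc36a1, the nucleoside carrier Slc29a3 (log2 -1.30 ± 0.30, adjusted p = 0.00253), Slc38a9 (-0.63 ± 0.17, 0.00715) and Slc38a7 (-0.60 ± 0.20, 0.0253). Slc38a9 did not pass with a length trend removed (adjusted p = 0.0851, range 0.00293 to 0.0851), and Slc38a7 did not pass without Dicretin 65 (0.079) or saline 35 (0.0701, range 0.0133 to 0.079).

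Some amino acids that enter the cytosol are carried on into mitochondria. A list of 16 tested mitochondrial carriers was looked at, not all of which are known to carry amino acids. In Dicretin against saline 7 of the 16 rose and 2 fell, where 17.5% of all genes were higher and 19.2% lower. Their median log2 fold change was 0.39. The ornithine carrier Slc25a15, which serves the urea cycle, rose from 186 ± 21.2 to 1223 ± 101 CPM (log2 2.71 ± 0.14, adjusted p = 7.91e-10). The glutamate carrier Slc25a22 rose from 114 ± 13.7 to 529 ± 139 CPM (2.21 ± 0.20, 1.82e-07). The liver carrier Slc25a47 fell from 845 ± 61.5 to 244 ± 51.9 CPM (-1.79 ± 0.17, 2.77e-07). In calorie restriction against saline Slc25a15 also rose (log2 0.94 ± 0.14, adjusted p = 0.000365) and Slc25a47 also fell (-1.30 ± 0.17, 0.000107), both separate from saline. None of the 16 passed in Semaglutide against saline by edgeR or limma-voom, 1 did by DESeq2, and 2 had an unadjusted p under 0.05. Of all genes, 4.18% passed there by edgeR.

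Of 25 genes for enzymes that make or break down the amino acids these carriers bring in, 15 rose and 4 fell in Dicretin against saline, with a median log2 fold change of 0.63, where 17.5% of all genes were higher and 19.2% lower. Tat, which begins the breakdown of the tyrosine carried by Slc16a10, rose from 528 ± 126 to 4488 ± 529.7 CPM (log2 3.09 ± 0.26, adjusted p = 6.36e-08). Sds, serine dehydratase, had a log2 fold change of 2.48 ± 0.29 (adjusted p = 3.11e-06). Cth, which releases cysteine from cystathionine, had one of 2.28 ± 0.22 (3.5e-07), and Got1, cytosolic aspartate aminotransferase, one of 3.30 ± 0.29 (1.03e-07). Glul, glutamine synthetase, fell from 1611 ± 237 to 342 ± 92.9 CPM (log2 -2.24 ± 0.21, adjusted p = 2.55e-07). Tat also rose in calorie restriction against saline, to 1192 ± 282 CPM (log2 1.18 ± 0.24, adjusted p = 0.00572), and was 460 ± 167 CPM in Semaglutide. In Semaglutide against saline 2 of the 25 fell, where 2.62% of all genes were lower. They were Oat (log2 -1.48 ± 0.25, adjusted p = 0.00211) and Gpt2 (-0.66 ± 0.13, 0.00788).

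Several of the carriers, Slc38a2, Slc7a5, Slc3a2 and Slc1a4 among them, are known targets of ATF4, the transcription factor of the amino acid response. Of 23 genes of amino acid sensing and of that pathway, 9 rose and 4 fell in Dicretin against saline, with a median log2 fold change of 0.38, where 17.5% of all genes were higher and 19.2% lower. Atf4 itself rose from 72 ± 7 to 192 ± 33 CPM (log2 1.41 ± 0.15, adjusted p = 1.35e-06), and Asns, asparagine synthetase, from 0.268 ± 0.271 to 20.2 ± 3.7 CPM (6.31 ± 0.42, 6.12e-09). Atf5, a related factor, rose (log2 1.99 ± 0.21, adjusted p = 9.47e-07), as did Psat1 of serine synthesis (3.12 ± 0.49, 7.34e-05) and the stress factor Ddit3 (1.02 ± 0.18, 0.000204). The log2 fold change of Psat1 was 2.35 without Dicretin 14, and that of Asns was 7.09 without saline 78. Trib3 had a log2 fold change of 0.60 ± 0.29 (adjusted p = 0.122), Chac1 one of -0.99 ± 0.43 (0.0818) and Eif4ebp1 one of 0.06 ± 0.17 (0.798), and Shmt2 fell (-1.28 ± 0.13, 6e-07).

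In calorie restriction against saline 2 of the 23 rose and 5 fell, where 3.42% of all genes were higher and 4.11% lower. Atf4 rose (log2 0.67 ± 0.15, adjusted p = 0.0106) while Chac1 (-2.34 ± 0.47, 0.00527), Eif4ebp1 (-0.96 ± 0.17, 0.00193) and Trib3 (-1.24 ± 0.31, 0.0204) fell. The Trib3 call was lost without calorie-restricted 7 (adjusted p = 0.0796), 8 (0.0574) or 52 (0.052) and without saline 35 (0.054) or 73 (0.0615), with a range of 0.00241 to 0.0796. In Semaglutide against saline 1 of the 23 passed by edgeR (4.18% of all genes did), 2 by limma-voom and 4 by DESeq2. By edgeR it was Trib3, which rose from 5.59 ± 0.563 to 13.4 ± 3.91 CPM (log2 1.26 ± 0.29, adjusted p = 0.0182), a call lost without Semaglutide 11 (0.0567) or saline 35 (0.0568) or 50 (0.0683), with a range of 0.00103 to 0.0683. Slc7a5, Slc3a2 and Slc1a4 did not pass in that comparison.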

How the data were processed

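The authors deposited raw gene counts for 16 liver libraries, 1 column per sample, matched by title. Per the submitters' processing notes, TopHat2 2.1.1, featureCounts and mm10 were used. The kit was directional per the labels' protocols, but counting options are not given in the sources used here. A symbol was found for 45143 of 46078 identifiers (GENCODE M21, GRCm38), and 22577 genes had no count.

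In R 4.3.3, edgeR 4.0.16 kept 12910 genes (filterByExpr), scaled libraries with TMM factors and fitted 1 mean per group to all 16 libraries (glmQLFit, robust). Each of 6 contrasts was tested with glmQLFTest, with Benjamini-Hochberg adjustment within a comparison and a threshold of 0.05. The fitting scripts were tested on simulated data. Promoter windows came from RefSeq. Log2 CPM for correlations used a prior count of 2. Intervals of the limits at 0 counts cover counting error only.

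All 10 transporters were described. From each list, up to 6 genes with the smallest p in Dicretin against saline and up to 2 elsewhere could be named, if they passed; some genes that this rule picks are counted but not reported by name here. The members and lists were chosen with earlier results of these data known. Alternatives were DESeq2 1.42.0 (size factors, Wald test), upper quartile factors, limma-voom (3.58.1), 2 other filters, the 20 most abundant genes left out, a length trend removed, only 2 groups fitted, and libraries left out.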

Additional observations from a re-analysis of the deposited data

Results flagged for a closer look

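Of 40 sets of 4 libraries (10 transcripts in 4 groups), 2 held a library far from its mates, by Dixon's test of the gap to the nearest library as a share of the group's range. Chance gives such a gap in about 1 of 20 sets. Slc38a4 in saline was lowest in library 50, at 1029.7 CPM, while the other 3 saline libraries lay between 1131 and 1144 CPM (gap 0.89 of the range). Slc43a1 in Semaglutide was highest in library 51, at 13.9 CPM, while its mates lay between 6.42 and 7.52 CPM (gap 0.85 of the range). Without Semaglutide 51, Slc43a1 was no longer called higher in Semaglutide than in calorie restriction, with a log2 fold change of 0.70 (adjusted p = 0.136).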

How the results depend on the processing

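Of the 60 values of the 10 transcripts in 6 comparisons, 23 passed, and 19 of these passed in the same direction under all 18 alternatives. The other 4 were Slc38a3 in Dicretin and in calorie restriction against saline, and Slc43a1 against calorie restriction in Dicretin and in Semaglutide. Slc43a1 in Semaglutide against calorie restriction was also lost with upper quartile factors (adjusted p = 0.0526), limma-voom (0.0604), only 2 groups (0.0764) and without Semaglutide 11 (0.0515), Semaglutide 31 (0.0759) or calorie-restricted 8 (0.0703), 52 (0.153) or 79 (0.127). The causes were not tested.

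The number of transporters passing in Semaglutide against calorie restriction was 1 with upper quartile factors, limma-voom or only 2 groups, and 4 without Semaglutide 11 and Dicretin 14. In Semaglutide against saline it was 2 with a length trend removed and 1 without those libraries, and in calorie restriction against saline 4 with only 2 groups. Leaving out 1 library at a time gave 6 to 7 in Dicretin against saline, 0 to 0 in Semaglutide against saline, 1 to 2 in calorie restriction against saline, 5 to 6 in Dicretin against calorie restriction, 1 to 2 in Semaglutide against calorie restriction and 6 to 6 in Dicretin against Semaglutide.

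Over all genes, the DESeq2 Wald test passed 982 in Semaglutide against saline (edgeR 539), 1528 in calorie restriction against saline (edgeR 972) and 1291 in Semaglutide against calorie restriction (edgeR 790). With a length trend removed 841 passed in Semaglutide against saline. In calorie restriction against saline 1880 passed without Semaglutide 11 and Dicretin 14 and 2569 with only 2 groups, and in Dicretin against Semaglutide 2658 passed with only 2 groups (4128 with all). Leave-one-out counts were 256 to 512 in Semaglutide against saline, 502 to 849 in calorie restriction against saline, 445 to 963 in Semaglutide against calorie restriction, 3921 to 4822 in Dicretin against saline, 3262 to 4434 in Dicretin against calorie restriction and 3580 to 4240 in Dicretin against Semaglutide. With a length trend removed, the share of calls that were higher went from 47.6% to 58.5% in Dicretin, from 37.3% to 55.6% in Semaglutide and from 45.5% to 60.2% in calorie restriction, each against saline, and DESeq2's Wald test gave 48.1% in Semaglutide.

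The sign turned only for values that did not pass, given here as log2 fold changes over single libraries left out. In Semaglutide against calorie restriction, Slc16a10 ranged from -0.08 to 0.11 (and was -0.01 with limma-voom) and Slc38a4 from -0.08 to 0.10. In Dicretin against calorie restriction, Slc38a4 ranged from -0.19 to 0.01 (and was 0.01 without both Semaglutide 11 and Dicretin 14) and Slc7a5 from -0.01 to 0.32. In Dicretin against Semaglutide, Slc38a4 ranged from -0.20 to 0.02 and Slc43a1 from -0.21 to 0.25. In Semaglutide against saline, Slc7a5 ranged from -0.03 to 0.48.

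No paired analysis was possible because no library number occurs in more than 1 group. Depth limits Slc7a5, Slc1a4 and Slc43a1 most, with 562, 1306 and 1920 counts over all libraries.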
